A study of Mus musculus with 8 samples.

Results

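The genes described here are 35 interferon-stimulated effector genes, chosen by name from the families that carry out or amplify the response to interferon. All 35 are among the 25229 gene symbols in the count tables, and 34 passed the filter on low counts. The exception was Trex1, a DNA exonuclease, which had between 0 and 7 reads in each library. They were measured by bulk RNA sequencing of hepatocyte-enriched liver cells from 8 C57BL/6 mice.

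Every mouse carried Ifih1-/-, a null genotype for the double-stranded RNA sensor MDA5, and Alb-Cre+, a recombinase driven by the albumin promoter that is active in hepatocytes. The groups differed in Adar1, the gene of an RNA-editing enzyme (symbol Adar in the tables): 3 mice were wt/wt, 2 were wt/flox and 3 were flox/flox. The design text counts 2 flox/flox mice, and all 3 so labelled were used. The ages of replicates 1, 2 and 3 were 11, 9 and 7 weeks in each group, and wt/flox had no replicate 3. Controls therefore also lacked MDA5 and carried Cre, so no group shows these genes with MDA5 present or without Cre, and cells in which albumin is not expressed are not a target of the deletion. The comparison of genotypes asks what loss of Adar1 does in the liver when MDA5 is missing. Names of the deposited tables mark all wt/flox and flox/flox libraries as a second batch and leave wt/wt unmarked, so genotype and that mark cannot be told apart in any comparison with wt/wt.

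Interferons of type I and III bind receptors that activate JAK kinases, which phosphorylate STAT2. It joins IRF9 in a complex that binds the interferon-stimulated response element in gene promoters, and the products of the genes it switches on tag, bind, cut or trap viral RNA and proteins. ADAR1 converts adenosine to inosine in double-stranded RNA, a change that keeps the cell's own RNA from being read as viral by sensors such as MDA5, and in the liver both hepatocytes and resident macrophages (Kupffer cells) respond to interferon.

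The element bound by that complex has a core of spaced GAAA blocks, so the 250 bases before each gene's start were searched on both strands for GAAA, any 2 bases and GAAA again, with overlapping matches counted. RefSeq (GRCm38.p6) gave a promoter for 27 of the 35 members, and 8 of the 27 (29.6%) held the motif, against 936 of 27025 genes with a promoter (3.46%). Those 8 were Isg15, Ifit1, Ifit3, Ifit3b, Rsad2, Trim30a, Stat2 and Bst2. The lines below give 1 stretch of 44 bases per gene for 7 of them, on the gene's own strand, with the motif in capitals (read as TTTC, 2 bases and TTTC where it lies on the opposite strand), because the motif precedes members of both wide and narrow spread.
Isg15, chr4:156200864-156200907: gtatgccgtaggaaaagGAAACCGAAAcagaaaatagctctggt
Ifit1, chr19:34640787-34640830: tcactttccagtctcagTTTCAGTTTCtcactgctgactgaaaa
Ifit3, chr19:34583390-34583433: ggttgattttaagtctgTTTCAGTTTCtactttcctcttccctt
Ifit3b, chr19:34607786-34607829: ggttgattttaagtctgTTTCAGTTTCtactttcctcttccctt
Rsad2, chr12:26456546-26456589: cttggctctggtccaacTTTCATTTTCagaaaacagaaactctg
Stat2, chr10:128270259-128270302: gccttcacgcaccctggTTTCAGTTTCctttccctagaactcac
Bst2, chr8:71537570-71537613: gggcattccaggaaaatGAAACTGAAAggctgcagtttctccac

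The Isg15 promoter held 3 overlapping matches, Ifit1, Ifit3, Ifit3b and Bst2 held 2 each, and the printed stretches of Ifit3 and Ifit3b were the same in every letter. Across the 8 members with the motif the highest library exceeded the lowest by a median of 17.2-fold, with a range from 2.32-fold in Stat2 to 41.0-fold in Isg15. Across the 18 tested members whose window lacked it the median was 3.24-fold, with a range from 1.62-fold in Trim25 to 56.8-fold in Ifi44. A match is a description of letters and not of a bound site, and the windows without one may hold other forms of the element.

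Reads in genes ranged from 75875711 to 132303735 per library. Levels below are CPM, read counts scaled to a common library size with TMM factors. Adar was at 28.1, 30.0 and 53.6 CPM in wt/wt mice, 22.0 and 31.8 in wt/flox mice, and 49.4, 35.9 and 42.1 in flox/flox mice. It was not called in flox/flox against wt/wt (edgeR adjusted p = 0.626) or against wt/flox (adjusted p = 0.558). These counts cover the whole gene, and the labels do not say which exons are floxed, so they do not check the deletion. Ifih1 had 0 to 4 reads per library. Both flox/flox 1 and flox/flox 2 go against their labelled sex: flox/flox 1, labelled female, had 31 Xist reads and 21255 reads of Y-linked genes, and flox/flox 2, labelled male, had 246646 and 0. By these transcripts wt/wt 1, wt/wt 2, both wt/flox libraries and flox/flox 1 are male, and wt/wt 3, flox/flox 2 and flox/flox 3 are female. Each group result is therefore also given without those 2 libraries or with a term for sex where that changes it.

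Most members shared an order of libraries. Of the 34 tested members, 24 had their highest level in wt/wt 3, against 13.6% of all 14728 genes tested. wt/flox 1 was lowest for 25 members, against 11.1% of all genes. Averaged over the 34 members, log2 CPM relative to each gene's mean was -0.60, -0.39 and 1.39 in wt/wt mice, -1.002 and -0.51 in wt/flox mice, and 0.77, -0.33 and 0.67 in flox/flox mice. The wt/wt group thus held the highest library and also low ones.

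**Figure D1:**
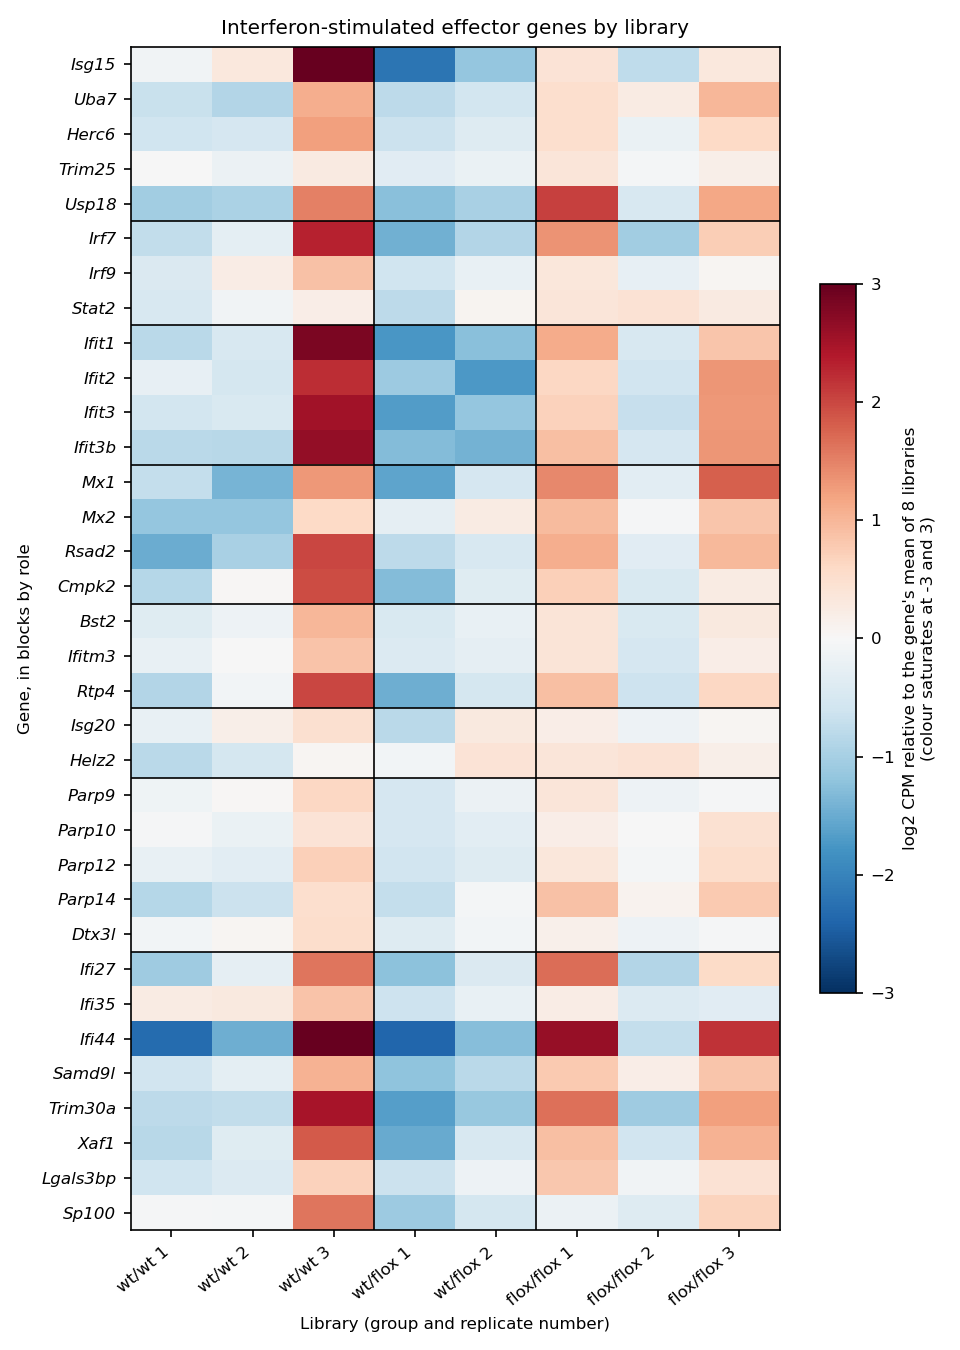
Colour shows log2 CPM of the 34 tested members (rows, in blocks by role) in each of the 8 libraries (columns), relative to the gene's mean over the libraries. Red fills most of the wt/wt 3 column and much of flox/flox 1 and flox/flox 3, and blue fills the wt/flox 1 column.

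Markers of other liver cells moved with the members in some libraries. In bulk samples, fewer cells of a type and less RNA per cell cannot be told apart. The summed level of 13 Kupffer cell markers was 64.3, 63.6 and 272.3 CPM in wt/wt mice, 35.7 and 37.1 in wt/flox mice, and 54.1, 35.5 and 124.8 in flox/flox mice, and each of the 13 was highest in wt/wt 3. No Kupffer marker was without reads in any group, and 0 of 13 were called in any of the 3 comparisons. Of all genes, 29.9% were called in flox/flox against wt/wt, 12.5% in wt/flox against wt/wt and 0% in flox/flox against wt/flox. All 13 were lower in both wt/flox libraries than in every wt/wt library, against 29.3% of all genes, with a median log2 fold change of -1.80. In flox/flox against wt/wt 1 of 13 was lower without overlap, against 22.0%. The summed level of 11 tested markers of monocytes and recruited macrophages ranged from 12.1 to 45.8 CPM in wt/wt, 5.95 to 7.46 in wt/flox and 5.75 to 16.3 in flox/flox. Of 15 markers of sinusoidal endothelial cells, 9 fell in flox/flox against wt/wt (14.7% of all genes) and 8 in wt/flox against wt/wt (5.89%). These markers summed to 228 to 359 CPM in wt/wt, 113 to 126 in wt/flox and 98.6 to 207 in flox/flox. In flox/flox 1 the members averaged 0.77, while the Kupffer list averaged -0.33 and the endothelial list -0.85, the lowest of the 8 libraries. Hepatocyte markers, 11 of 12 of which are in the tables, summed to 107261 to 125883 CPM in wt/wt, 162534 to 183255 in wt/flox and 171626 to 254341 in flox/flox, levels that go with the labelled cell type. Every library of the other genotypes lay above every wt/wt library. In each comparison with wt/wt 4 of the 11 markers rose, against 15.1% of all genes for flox/flox and 6.58% for wt/flox. The part of these cells in the members' levels was not tested.

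Levels between genes were compared per kilobase of exon. Ifitm3 led with a mean of 282 CPM per kb, ahead of Bst2 with 118 and Ifi27 with 61.7. Sp100, Mx1 and Isg20 were the lowest of the tested members, at 0.357, 0.610 and 0.738 CPM per kb. Spread differed widely between members: the highest library exceeded the lowest by at least 10-fold in 12 members, by 5 to 10-fold in 4, by 3 to 5-fold in 5 and by less than 3-fold in 13. Within-group SDs of the leaders were wide. For Ifitm3 the means were 328 ± 137 CPM per kb for the 3 wt/wt mice (SD), 213 ± 12.8 for the 2 wt/flox mice and 283 ± 85.4 for the 3 flox/flox mice, and for Bst2 they were 135 ± 74.9, 87.5 ± 9.42 and 119.9 ± 34.99.

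ISG15 is a ubiquitin-like protein that is attached to other proteins by the activating enzyme UBA7 and the ligase HERC6, with TRIM25 acting as a ubiquitin and ISG15 ligase, and is removed by the protease USP18, which also restrains the interferon receptor. Isg15 was at 4.13, 5.48 and 39.3 CPM in wt/wt mice, 0.959 and 1.96 in wt/flox mice, and 5.90, 2.62 and 5.51 in flox/flox mice. The wt/flox values lay below those of both other groups, while flox/flox overlapped wt/wt 1 and wt/wt 2 and stayed far under wt/wt 3. On the log2 scale flox/flox differed from wt/flox by 1.68 (SE 1.00, edgeR adjusted p = 0.582), and wt/flox differed from wt/wt by -3.49 (SE 1.08, adjusted p = 0.0713).

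Usp18 was at 7.77, 8.27 and 45.7 CPM in wt/wt mice, 6.76 and 8.14 in wt/flox mice, and 67.0, 11.5 and 35.7 in flox/flox mice. Here flox/flox 1, not wt/wt 3, was the highest library, and every flox/flox value exceeded every wt/flox value. The difference between those groups was 2.35 (SE 0.98) on the log2 scale, adjusted p = 0.558. Uba7 had 7.55, 6.52 and 25.6 CPM in wt/wt mice, 6.88 and 8.15 in wt/flox mice, and 17.0, 14.3 and 23.9 in flox/flox mice. Herc6 had 17.0, 18.3 and 60.8 CPM in wt/wt mice, 16.4 and 19.7 in wt/flox mice, and 36.9, 22.4 and 39.4 in flox/flox mice. Both genes shared a pattern in which all 3 flox/flox libraries lay above the wt/flox libraries and above wt/wt 1 and 2, but not above wt/wt 3. Of the exon bases of Herc6, 13.7% overlap the predicted gene Gm45193 on its strand. Trim25 varied least of the tested members, with 105.6 CPM, 93.1 and 126.6 in wt/wt mice, 83.6 and 91.9 in wt/flox mice, and 135.2, 100.9 and 118.5 in flox/flox mice.

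Among the transcription factors, IRF7 amplifies interferon production, and STAT2 and IRF9 are parts of the complex that binds the response element. Irf7 was at 13.6, 18.3 and 112.2 CPM in wt/wt mice, 8.28 and 12.2 in wt/flox mice, and 57.5, 11.0 and 37.9 in flox/flox mice. flox/flox 2 lay between the wt/flox libraries, so those groups overlapped. Stat2 was at 44.4, 57.8 and 70.9 CPM in wt/wt mice, 36.0 and 65.8 in wt/flox mice, and 80.2, 83.5 and 75.2 in flox/flox mice. It was 1 of the 2 members, with Helz2, whose flox/flox libraries all exceeded every wt/wt library, and its flox/flox libraries also exceeded every wt/flox library. Its log2 fold changes were 0.46 (SE 0.24) against wt/wt and 0.65 (SE 0.28) against wt/flox, with adjusted p of 0.183 and 0.558. Irf9 ranged from 18.8 to 52.4 CPM, with its lowest value in wt/flox 1 and its highest in wt/wt 3.

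IFIT proteins bind viral RNA whose cap lacks the methyl marks of host mRNA, or act as partners in that complex. Their genes lie together on chromosome 19, between positions 34550694 (start of Ifit2) and 34650009 (end of Ifit1) of GRCm38. Ifit1 was at 7.45, 9.28 and 91.7 CPM in wt/wt mice, 3.83 and 5.45 in wt/flox mice, and 28.1, 9.32 and 23.1 in flox/flox mice. Ifit2 was at 1.87, 1.51 and 10.2 CPM in wt/wt mice, 1.03 and 0.653 in wt/flox mice, and 3.41, 1.47 and 5.56 in flox/flox mice. The wt/flox values of each were below those of every other library. Ifit3 was at 6.23, 6.59 and 51.9 CPM, 2.82 and 4.05, and 14.7, 5.65 and 22.4 in the same group order. Ifit3b followed with 1.60, 1.56 and 17.7 CPM, 1.13 and 1.05, and 5.26, 1.99 and 7.05. The 4 genes kept close to each other: their log2 fold changes lay between 2.04 and 2.12 for flox/flox against wt/flox, between -0.84 and -0.38 against wt/wt, and between -2.96 and -2.43 for wt/flox against wt/wt. Ifit3 and Ifit3b share 51.2% and 45.0% of their 50-base words with transcripts of other genes, mostly each other, so the split of reads between them is uncertain.

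MX1 and MX2 are dynamin-like GTPases that block viral particles, viperin (Rsad2) makes a chain-terminating nucleotide, and CMPK2, a nucleotide kinase encoded beside it, supplies nucleotides for that reaction. Rsad2 was at 7.61, 10.9 and 86.3 CPM in wt/wt mice, 12.4 and 15.3 in wt/flox mice, and 46.0, 16.9 and 42.3 in flox/flox mice. Its wt/flox values lay above wt/wt 1 and wt/wt 2, unlike those of the IFIT genes. Its neighbour on chromosome 12, Cmpk2, had 4.60, 8.64 and 32.6 CPM in wt/wt mice, 3.39 and 6.53 in wt/flox mice, and 13.8, 6.12 and 9.91 in flox/flox mice. Mx2 was at 6.15, 6.21 and 20.8 CPM in wt/wt mice, 11.4 and 16.4 in wt/flox mice, and 26.7, 13.5 and 24.5 in flox/flox mice. Mx1 had 0.964, 0.600 and 3.96 CPM in wt/wt mice, 0.526 and 1.12 in wt/flox mice, and 4.40, 1.29 and 5.61 in flox/flox mice. The highest library of Mx1 was flox/flox 3 and that of Mx2 was flox/flox 1. The annotation lists Mx2 as a polymorphic pseudogene, and the genes share about 4% of their 50-base words (3.91% of Mx1 and 4.38% of Mx2). Read counts do not show whether Mx1 or Mx2 makes a working protein in these mice.

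Tetherin (Bst2) holds budding virions at the cell surface, IFITM3 hinders fusion of virus with membranes, and RTP4 is a receptor transport protein induced by interferon. Bst2 was at 77.3, 89.1 and 199.9 CPM in wt/wt mice, 73.0 and 85.0 in wt/flox mice, and 131.2, 72.3 and 121.4 in flox/flox mice. Ifitm3 was at 156.1, 181.8 and 328.4 CPM in wt/wt mice, 138.3 and 150.6 in wt/flox mice, and 240.2, 127.8 and 208.1 in flox/flox mice. For both, flox/flox 2 was the lowest library of its group and lay under the wt/flox libraries. Ifitm3 shares 10.0% of its 50-base words with other transcripts, among them Gm7676. Rtp4 had 4.94, 8.62 and 36.8 CPM in wt/wt mice, 3.30 and 6.31 in wt/flox mice, and 17.0, 5.92 and 14.1 in flox/flox mice, and 13.9% of its exon bases overlap the predicted gene Gm45338 on the same strand.

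**Figure D2:**
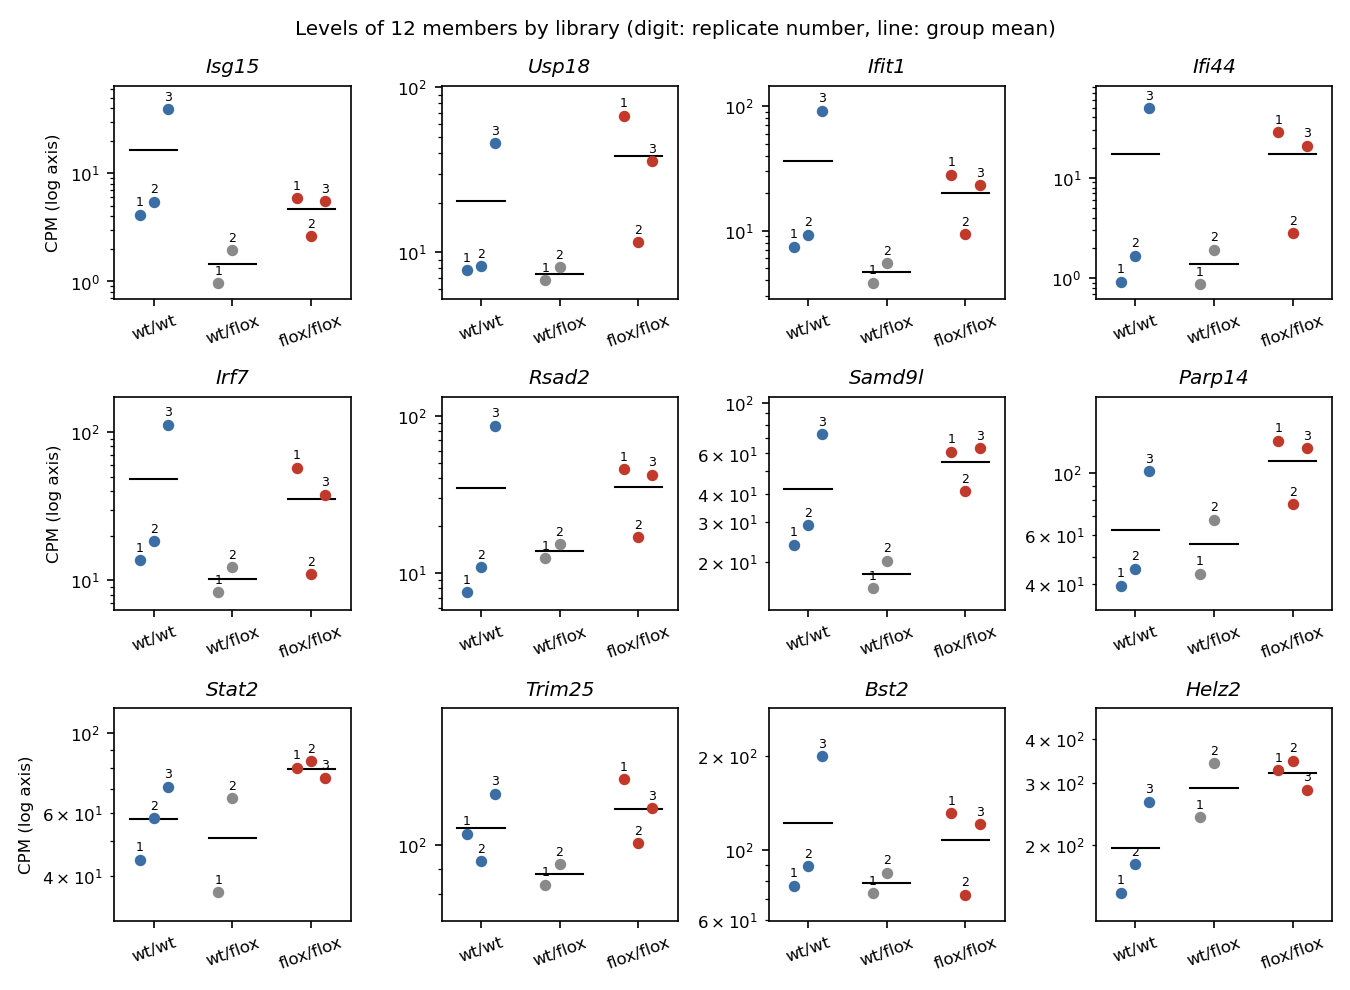
CPM (log axis) of 12 members in each library, grouped by Adar1 genotype, with the replicate number above each point and a line at the group mean. In wt/wt, replicate 3 stands above replicates 1 and 2 in all 12 panels; in flox/flox, replicate 2 is the lowest in 10 of them and the highest for Stat2 and Helz2.

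ISG20 is an exonuclease and HELZ2 a helicase and transcriptional coactivator. Helz2 was at 146.2, 176.1 and 264.8 CPM in wt/wt mice, 239.4 and 341.0 in wt/flox mice, and 326.1, 346.6 and 286.5 in flox/flox mice. All flox/flox libraries lay above the wt/wt libraries, while wt/flox overlapped both. Its log2 fold change of 0.71 (SE 0.24) against wt/wt missed the threshold with edgeR (adjusted p = 0.0586) and passed it with DESeq2 (adjusted p = 0.0227) and limma-voom (adjusted p = 0.0464). Against wt/flox the log2 fold change was 0.14 (SE 0.27). Isg20 stayed between 0.749 and 1.85 CPM, and the groups overlapped. Trex1 lies wholly within exons of Atrip on the same strand, so its few reads are uncertain.

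The ADP-ribosyltransferases PARP10, PARP12 and PARP14 attach ADP-ribose to proteins or RNA, and the PARP9 protein pairs with the ubiquitin ligase DTX3L. Parp14 was at 39.5, 45.4 and 102 CPM in wt/wt mice, 43.6 and 68.2 in wt/flox mice, and 131 CPM, 77.4 and 123 in flox/flox mice. Parp12 was at 40.1, 37.5 and 76.4 CPM in wt/wt mice, 31.2 and 35.8 in wt/flox mice, and 59.8, 44.7 and 67.8 in flox/flox mice. Both had every flox/flox value above every wt/flox value. Parp10 was at 21.2, 18.7 and 28.8 CPM in wt/wt mice, 15.1 and 17.4 in wt/flox mice, and 24.8, 21.2 and 29.8 in flox/flox mice, a flox/flox against wt/flox log2 fold change of 0.64 (SE 0.22, edgeR adjusted p = 0.558). Parp9 ranged from 40.8 to 89.4 CPM and Dtx3l from 58.9 to 112 CPM, both lowest in wt/flox 1 and highest in wt/wt 3. Parp9 and Dtx3l overlap on opposite strands of chromosome 16, and reads on the opposite strand made up 10.7% and 9.06% of their reads, where the tested members ran from 1.62% to 10.7%.

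The remaining members include SAMD9L, a growth-restricting antiviral factor, IFI44, TRIM30A and XAF1, and the secreted galectin-binding protein LGALS3BP. Ifi44 had the widest spread of the list, with 0.924, 1.67 and 49.8 CPM in wt/wt mice, 0.877 and 1.92 in wt/flox mice, and 28.5, 2.81 and 20.9 in flox/flox mice. Both wt/flox libraries sat near wt/wt 1 and 2, and the flox/flox libraries sat above them and below wt/wt 3. Samd9l was at 23.9, 29.1 and 72.8 CPM in wt/wt mice, 15.3 and 20.3 in wt/flox mice, and 61.2, 41.0 and 63.4 in flox/flox mice. It had the smallest unadjusted p of any member in flox/flox against wt/flox (log2 fold change 1.63, SE 0.48, edgeR adjusted p = 0.558). Trim30a, a restrainer of inflammatory signalling, was at 3.57, 3.69 and 34.6 CPM in wt/wt mice, 1.97 and 2.81 in wt/flox mice, and 19.5, 2.91 and 14.6 in flox/flox mice. Lgals3bp was at 46.4, 52.4 and 112 CPM, 44.5 and 62.7, and 122 CPM, 65.2 and 94.9 in the same group order. In both genes flox/flox 2 was the lowest of its group.

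Ifi27, a mitochondrial and nuclear membrane protein gene, was at 32.3, 56.2 and 204 CPM in wt/wt mice, 28.7 and 50.3 in wt/flox mice, and 215 CPM, 36.6 and 101 in flox/flox mice. Xaf1, whose product counters an inhibitor of apoptosis, was at 2.51, 3.50 and 16.0 CPM in wt/wt mice, 1.56 and 3.22 in wt/flox mice, and 8.40, 3.02 and 9.31 in flox/flox mice. Sp100, a nuclear body component, had 2.25, 2.21 and 7.02 CPM in wt/wt mice, 1.06 and 1.59 in wt/flox mice, and 2.04, 1.74 and 3.67 in flox/flox mice. These 3 again had wt/flox 1 lowest, and wt/wt 3 or flox/flox 1 highest. Ifi35, a partner of the interferon-induced protein NMI, differed: it was at 18.8, 19.6 and 28.8 CPM in wt/wt mice, 10.4 and 13.5 in wt/flox mice, and 18.6, 11.9 and 12.6 in flox/flox mice. Every wt/wt library exceeded every other library for it. On the log2 scale flox/flox differed from wt/wt by -0.64 (SE 0.24, edgeR adjusted p = 0.0769), and wt/flox did by -0.91 (SE 0.27, adjusted p = 0.0661).

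In flox/flox against wt/flox, the comparison within the second-batch mark, all 34 tested members had a log2 fold change above 0, against 54.4% of all genes tested. Their median was 0.99, against 0.04 over all genes. The range ran from 0.14 in Helz2 to 3.64 in Ifi44. By role, medians were 2.09 for the 4 IFIT genes, 1.29 for the 5 genes of the ISG15 system, 0.64 for the 5 of the ADP-ribosyltransferase block and 0.45 for the 3 membrane proteins. In 21 members, every flox/flox library exceeded both wt/flox libraries, against 14.2% of all genes, and none had the opposite order, against 13.1%. The first count was 32 without wt/flox 2, when 27.7% of all genes had that order, and 31 without flox/flox 2 (20.4%). Most marker lists moved the same way here: 13 of 13 Kupffer cell markers were above 0 (median 0.86), as were 11 of 11 of monocytes and recruited macrophages (median 0.69), 10 of 11 of stellate cells (median 0.34) and 13 of 15 of sinusoidal endothelial cells (median 0.32). So were 8 of 10 of T and NK cells (median 0.90) and 5 of 6 of B and plasmacytoid dendritic cells (median 0.85). Cholangiocyte markers had 3 of 5 above 0 (median 0.50) and neutrophil markers 2 of 5 (median -0.09). None of these markers was called, 3 of 11 hepatocyte markers were above 0, and the part of these cells in the members' values was not tested.

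No member was called in this comparison by edgeR at an adjusted p under 0.05, and no gene of the 14728 was (0%). At an unadjusted p under 0.05, 6 members were higher (4.57% of all genes) and 0 were lower (3.85%). DESeq2 called 47 genes higher and 28 lower, none of them members, whose lowest adjusted p was 0.0557, and limma-voom called 0 members. Both wt/flox libraries carry Y-linked transcripts and 2 of the 3 flox/flox libraries carry Xist. With the labelled sex as a term, 20 of the 34 members stayed above 0 (52.3% of all genes) and their median was 0.078. The libraries labelled female were wt/wt 3, flox/flox 1 and flox/flox 3, where the members averaged highest (1.39, 0.77 and 0.67 on the relative log2 scale). In every comparison, the labelled sex therefore cannot be told apart from that order of libraries. With sex taken from the transcripts, 33 stayed above 0 and the median was 0.66. Above 0 were 33 members without the 2 libraries that contradict their labelled sex, a fit that leaves flox/flox 3 alone in its group. The number was 32 without wt/flox 1, which leaves wt/flox 2 alone in its group. Among the 5 libraries with Y-linked transcripts, flox/flox 1 was the highest for 30 of the 34 members, against 24.8% of all genes; the exceptions were Isg20, Ifi35, Sp100 and Helz2.

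**Figure D3:**
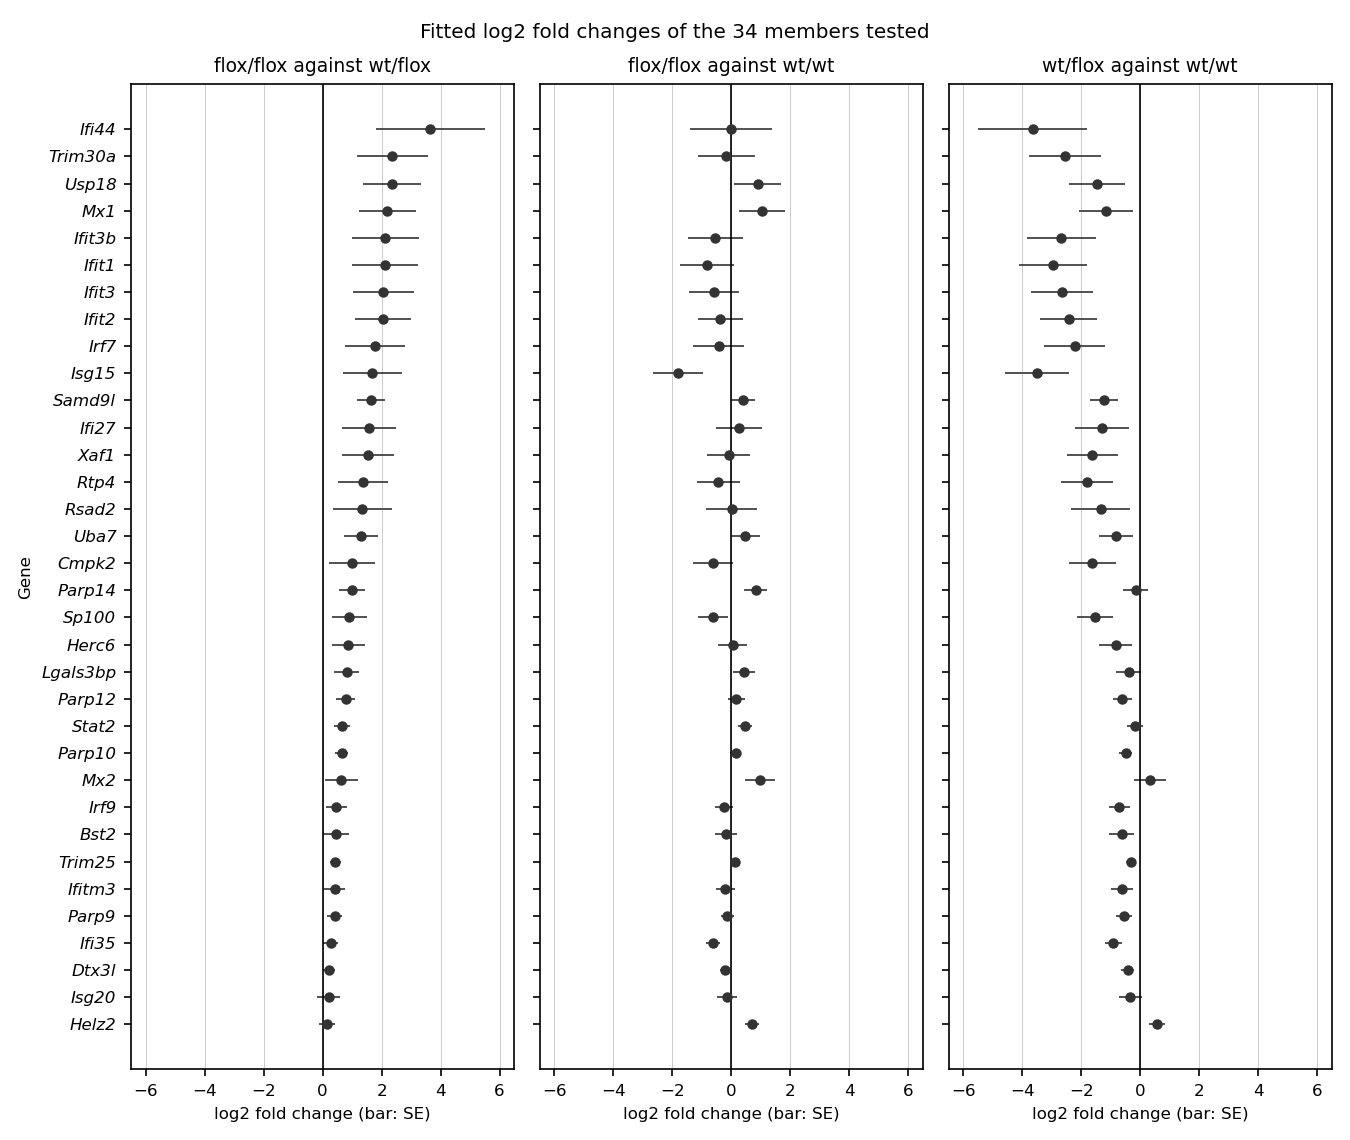
Points are fitted log2 fold changes and bars their SE for the 34 tested members (rows, ordered by the left panel) in the 3 comparisons. In the left panel, flox/flox against wt/flox, all points lie above 0; in the middle panel 15 of 34 do, and in the right panel, wt/flox against wt/wt, only Mx2 and Helz2 do.

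In flox/flox against wt/wt the members divided, with 15 of 34 above 0 (51.1% of all genes) and a median log2 fold change of -0.11 (0.02 over all genes). Without the 2 libraries that contradict their labelled sex, which leaves flox/flox 3 alone in its group, 21 were above 0 and the median was 0.089. The values ran from -1.80 (SE 0.84) in Isg15 to 1.03 (SE 0.78) in Mx1. No member passed the threshold with edgeR, against 29.9% of all genes, of which 15.1% were called higher and 14.7% lower. At an unadjusted p under 0.05 there were 1 higher member, Helz2, and 1 lower, Ifi35, against 21.9% and 20.6% of all genes. DESeq2 called the same 2, and limma-voom called Helz2. With the labelled sex as a term, 12 members were above 0 and edgeR called 4 members lower than in wt/wt: Isg15 (adjusted p = 0.0259), Ifi35 (0.0266), Ifitm3 (0.0436) and Irf7 (0.0474). In that fit 6010 of all 14728 genes had an unadjusted p under 0.05, in either direction. With DESeq2 there were 6488 such genes and with limma-voom 6278. That threshold is looser than the one of the calls, so these counts are not shares of genes called. With sex taken from the transcripts, 18 members were above 0 and none was called. All flox/flox libraries lay above all wt/wt libraries in 2 members (23.0% of all genes) and below them in 1 (22.0%). Without flox/flox 2 the median was 0.24 and 5 members lay above all wt/wt libraries (26.1% of all genes), and without flox/flox 3, 2 lay below (27.8%).

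Of the 8 libraries, wt/wt 3 changed the number of members above 0 and their median most when left out. It was the highest library for 24 of the 34 members, so leaving it out was bound to raise their fold changes. By transcripts, the remaining wt/wt 1 and wt/wt 2 are male, and flox/flox 2 and flox/flox 3 are female. Without wt/wt 3, 31 of the 34 members were above 0 (53.1% of all genes) and their median was 0.96. In that fit edgeR called 11 members higher, against 13.0% of the 14561 genes then tested. They were Usp18 (log2 fold change 2.25, adjusted p = 0.0424), Ifi44 (3.74, 0.0309), Mx1 (2.27, 0.0463), Mx2 (1.80, 0.0102), Rsad2 (1.92, 0.0199), Samd9l (1.06, 0.0191), Parp14 (1.38, 0.0155), Herc6 (0.90, 0.0387), Lgals3bp (0.93, 0.0478), Helz2 (0.99, 0.0144) and Uba7 (1.39, 0.0096). For Ifi44 this turned the direction, from -0.01 with all libraries. In 16 members every flox/flox library then exceeded both remaining wt/wt libraries, against 28.2% of all genes. wt/wt 3 is the female of its group by label and by transcripts and, at 7 weeks, the youngest. Among the 3 libraries with Xist, wt/wt 3 was the highest for 28 of 34 members, against 40.8% of all genes. The 24 members that were highest in wt/wt 3 among all 8 libraries are part of that count by construction, so it is not separate evidence.

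**Figure D4:**
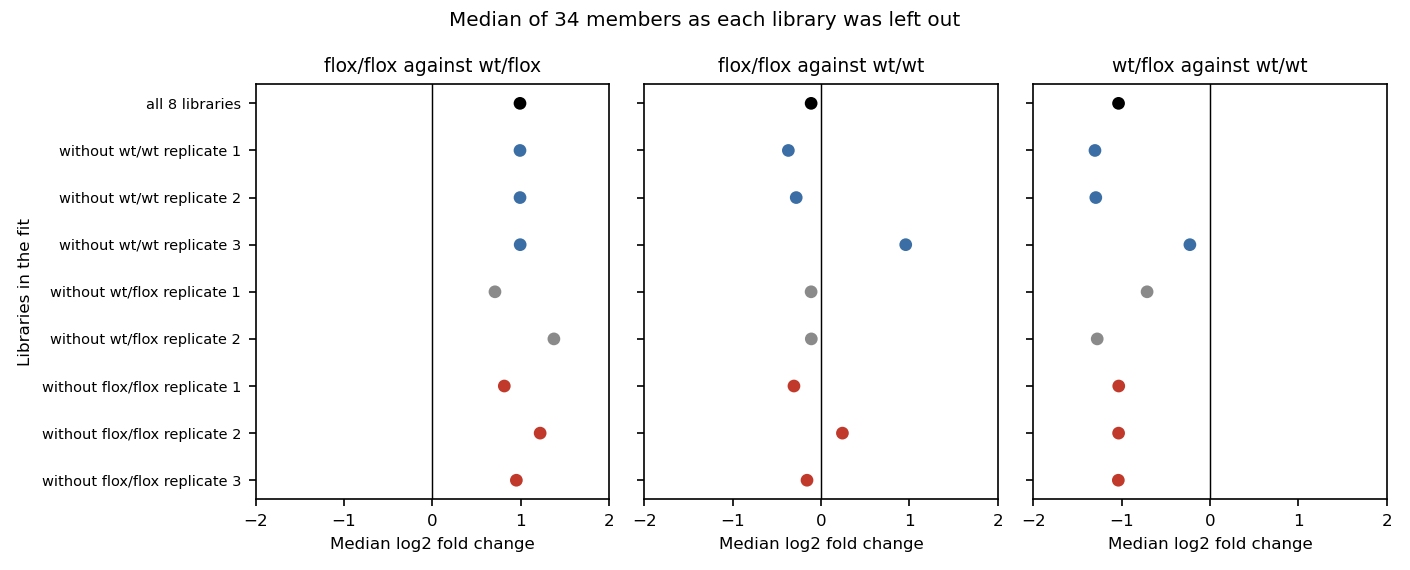
Each point is the median log2 fold change of the 34 members with all 8 libraries or with the library named on the vertical axis left out, for the 3 comparisons. Leaving out wt/wt replicate 3 moves the median from -0.11 to 0.96 in flox/flox against wt/wt, and from -1.04 to -0.23 in wt/flox against wt/wt.

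In wt/flox against wt/wt, 32 of the 34 members were below 0, whereas 45.8% of all genes were above 0, and the median was -1.04 (-0.06 over all genes). Isg15, Ifi44 and the IFIT genes had the lowest values, down to -3.65 (SE 1.85) in Ifi44. No member passed the edgeR threshold, against 12.5% of all genes (6.58% called higher and 5.89% lower). At an unadjusted p under 0.05, 7 members were lower (16.2% of all genes) and 0 higher (15.5%). DESeq2 called 5 members lower: Isg15, Ifit2, Ifi35, Samd9l and Sp100. It called 1587 of all 14728 genes lower. With limma-voom 0 members were called. Both wt/flox libraries lay below all wt/wt libraries in 15 members (29.3% of all genes), and above them in 0 (25.8%). The count below was 23 without wt/wt 1 (33.3% of all genes) and 29 without wt/flox 2 (39.4%), and 3 members lay above without wt/wt 3 (30.1%). With the labelled sex as a term, 6 members were above 0 and the median shrank to -0.31, and with sex taken from the transcripts 3 were above 0 and the median was -0.58. Without wt/wt 3, 9 were above 0 and the median was -0.23. This comparison and the one before it share the wt/wt libraries, and both place wt/wt 3 on the control side.

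Transcripts of the interferons themselves were at or near 0. Of 21 ligand genes in the tables, 18, including Ifnb1 and 14 listed as Ifna genes or Ifnab, had no read in any library, which allows up to 3 reads in each. Ifnk was the 1 ligand gene that passed the filter, with 2, 0 and 3 reads in wt/wt mice, 2 and 1 in wt/flox mice, and 8, 17 and 16 in flox/flox mice. On these few reads it rose by 2.87 (SE 0.79, edgeR adjusted p = 0.0296) on the log2 scale over wt/wt.

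Of 17 genes of the interferon receptors and the JAK-STAT pathway, 3 rose and 0 fell in flox/flox against wt/wt (15.1% and 14.7% of all genes). In wt/flox against wt/wt 2 rose (6.58% of all genes), and none was called in flox/flox against wt/flox. Ifnar1, a chain of the type I interferon receptor, was at 44.2, 44.4 and 44.1 CPM in wt/wt mice, 64.9 and 76.8 in wt/flox mice, and 64.1, 72.7 and 77.2 in flox/flox mice. It rose in both comparisons with wt/wt, by 0.69 (SE 0.11, adjusted p = 0.00463) and 0.68 (SE 0.12, adjusted p = 0.0183), and did not separate flox/flox from wt/flox (0.01, SE 0.13). wt/wt 3, the highest library for most members, did not stand apart in Ifnar1.

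Related families also had their highest mean in wt/wt 3. The 8 tested OAS genes, whose products make the activator of RNase L, averaged -1.07, -0.66 and 2.62 on the relative log2 scale in wt/wt mice, -2.02 and -0.88 in wt/flox mice, and 1.67, -0.95 and 1.29 in flox/flox mice. All 8 were above 0 in flox/flox against wt/flox, with a median of 1.96, and 0 were called in any comparison. The 18 tested GBP and IRG GTPases, which attack vacuoles that hold pathogens, had a median of 1.19 there with 17 above 0, again with 0 called in any comparison. Of 17 tested genes of nucleic acid sensing, 0 were called in any comparison. Over all genes the shares called were 29.9% in flox/flox against wt/wt, 12.5% in wt/flox against wt/wt and 0% in flox/flox against wt/flox. Of 50 other interferon-stimulated genes, 46 were above 0 in flox/flox against wt/flox with 0 called, where no gene of any kind was called. In flox/flox against wt/wt 1 rose and 6 fell (15.1% and 14.7% of all genes). In wt/flox against wt/wt 0 rose and 6 fell (6.58% and 5.89% of all genes). The lowest p in those comparisons with wt/wt belonged to Ifi30, a lysosomal reductase (fell by 1.19, SE 0.22, adjusted p = 0.0065), and Nmi (fell by 1.42, SE 0.27, adjusted p = 0.0192).

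**Figure D5:**
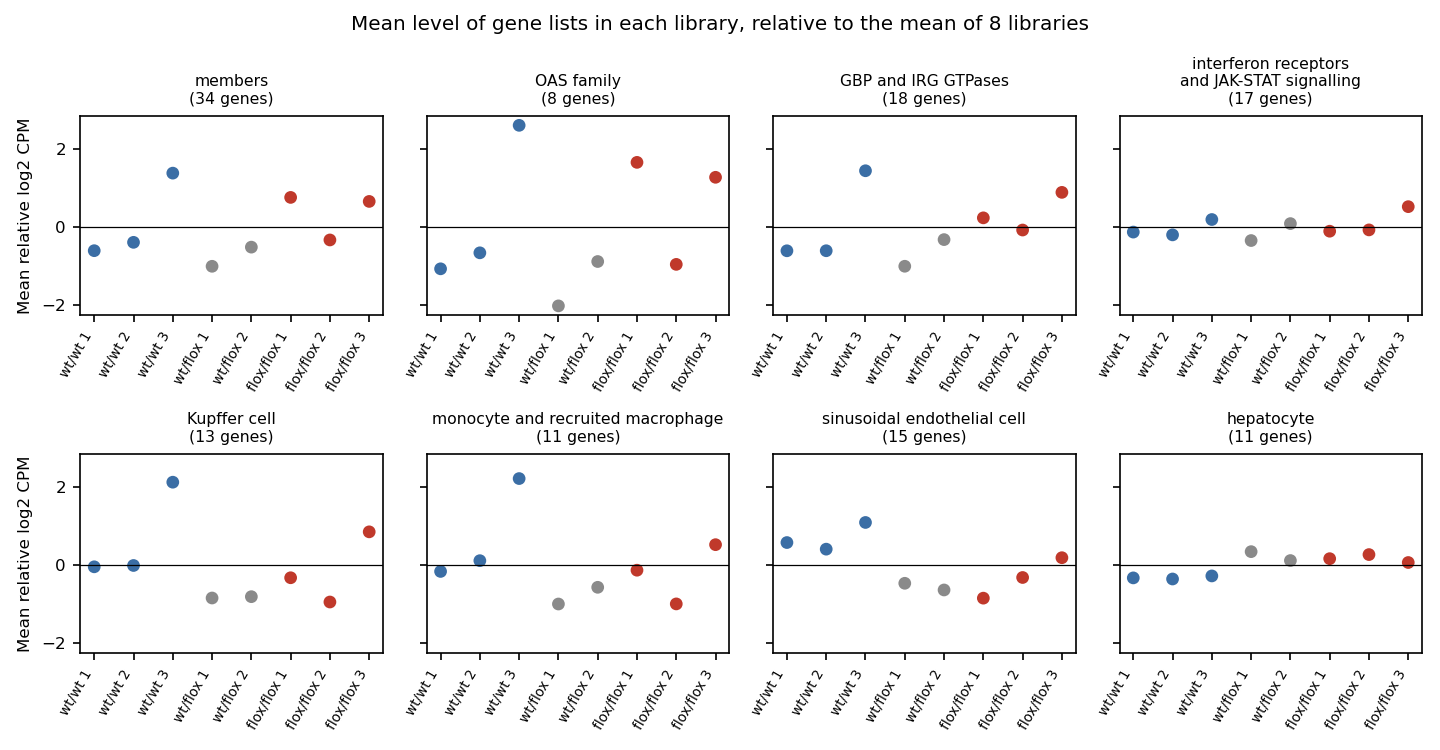
Each point is the mean log2 CPM of a gene list in 1 library, relative to the mean of 8 libraries, for the members and 7 other lists, coloured by genotype (blue wt/wt, grey wt/flox, red flox/flox). wt/wt 3 is the highest point for the members, OAS, GBP and IRG, Kupffer, monocyte and endothelial lists, whereas flox/flox 1 is high for the members and the OAS genes and at -0.33 for the Kupffer markers.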

How the data were processed

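The authors deposited raw read counts per gene symbol for each of 8 mouse liver libraries, with sense and antisense reads in separate columns per the file headers. Per the submitters' processing notes the build was GRCm38 (mm10), and DESeq2 was used. The names of the aligner, the counter and the annotation: not given in the sources used here. Alignments to more than 1 place have a row of their own in the tables, so near-identical genes are under-counted. The 5 rows per file that name no gene were left out. Their shares separated wt/wt from the other genotypes without overlap. Sense reads outside genes were 22.2% to 28.1% for wt/wt, against 31.7% to 40.0% for wt/flox and flox/flox libraries. Ambiguous reads were at 0.511% to 0.668% for wt/wt, elsewhere at 0.317% to 0.419%. The row for more than 1 place held 8.97% to 10.9% for wt/wt, elsewhere 3.92% to 4.98%. The effect of these differences on the comparisons with wt/wt was not tested.

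Sense counts were tested here in R 4.3.3 with the quasi-likelihood F test of edgeR 4.0.16, after TMM scaling and filterByExpr. Genotype was the 1 term, all 8 libraries shared the fit, and p-values were two-sided and Benjamini-Hochberg adjusted over 14728 genes at 0.05. Fold changes are those of the fit. Relative levels are log2 CPM with a prior count of 2. Positions and exon lengths came from GENCODE M21 (GRCm38), which held 24366 of the 25229 symbols (96.6%) and 35 of 35 members, and promoters from RefSeq. The limit of 3 reads given for a count of 0 is at 95% confidence and covers counting error only. Alternatives were other size factors and filters, DESeq2 1.42.0, limma-voom (limma 3.58.1), terms for sex or replicate number, sense plus antisense counts, subsets of groups and leaving out each library. The fits were tested on simulated data with 200 changed genes. In flox/flox against wt/flox, 13% of 2-fold and 62% of 4-fold changes were recovered. The shares were 26% and 68% in flox/flox against wt/wt, and 13% and 66% in wt/flox against wt/wt, so most 2-fold changes were missed.

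The members and the lists were chosen with earlier results of these data known. By the naming rule each member is named, with Adar and Ifih1, and of each other list the gene of smallest p in a comparison may be. RefSeq held no promoter for Ifi27, Usp18, Mx1, Mx2, Parp9, Parp10, Parp14 and Rtp4.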

Additional observations from a re-analysis of the deposited data

How the results depend on the processing

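Where a setting called a member, its sign was the opposite of that in the main fit in 1 case, Ifi44 in flox/flox against wt/wt. Over all settings the Ifi44 value there ranged from -0.57 (without wt/wt 1) to 3.74 (without wt/wt 3). Many uncalled fold changes changed sign too. In flox/flox against wt/wt, where 15 of 34 were above 0, 16 members changed sign without wt/wt 3, 14 with the replicate block and sex by transcripts (29 above 0), 7 with the replicate block (22 above 0), 6 with library size alone and 5 with limma-voom (20 above 0). In flox/flox against wt/flox 14 did with the labelled sex as a term, and in wt/flox against wt/wt 7 did without wt/wt 3. Counts of members called in flox/flox against wt/wt were 1 higher with DESeq2, limma-voom and the replicate block (Helz2 in each), 1 lower with library size alone and DESeq2 (Ifi35), and 4 lower with the labelled sex as a term (Isg15, Ifi35, Irf7 and Ifitm3). Members without overlap there were 0 higher and 2 lower with library size alone, and 0 lower with RLE size factors. In wt/flox against wt/wt, 1 member was called lower with upper-quartile size factors (Ifi35), 6 with library size alone (Isg15, Ifi35, Parp9, Parp10, Dtx3l and Trim25) and 5 with DESeq2. With the labelled sex as a term the members' median was -0.31 in wt/flox against wt/wt and 0.078 in flox/flox against wt/flox. No setting called a member in flox/flox against wt/flox.

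Over all genes, flox/flox against wt/wt gave 744 higher and 4097 lower calls with library size alone, 792 and 994 with the replicate block and sex by transcripts, and 1261 higher without the 2 libraries of contradicted sex. DESeq2 gave 47 higher and 28 lower in flox/flox against wt/flox. In wt/flox against wt/wt, calls were 281 higher and 3217 lower with library size alone, 1709 and 1587 with DESeq2, 0 and 0 with the replicate block and sex by transcripts, 635 higher with the labelled sex and 1305 lower with upper-quartile size factors. Library size alone shifted the median of all genes to -0.31 in flox/flox against wt/wt and -0.42 in wt/flox against wt/wt, and upper-quartile size factors shifted the latter to -0.14. Beyond the shifts by construction of the scaling, the cause was not tested.

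With each library left out in turn, members called in flox/flox against wt/wt numbered 0 to 11 higher and 0 to 1 lower (Ifi35 without flox/flox 1), and their median ran from -0.37 to 0.96. Members without overlap there numbered 2 to 16 higher and 1 to 2 lower. In flox/flox against wt/flox the median ran from 0.71 to 1.38, with 21 to 32 members without overlap higher and 0 to 1 lower. In wt/flox against wt/wt the median ran from -1.30 to -0.23, with 0 to 1 members called lower (Ifi35 without flox/flox 1), 0 to 3 without overlap higher and 15 to 29 lower. Over all genes, calls ran from 1038 to 2358 higher and 1157 to 2364 lower in flox/flox against wt/wt, and from 0 to 1343 higher and 0 to 1182 lower in wt/flox against wt/wt, with 0 when either wt/flox library was left out, a fit in which the lone wt/flox library is assumed to vary like the others. Deviations of same-numbered libraries correlated at 0.01 to 0.29 for number 1, 0.02 to 0.06 for number 2 and 0.45 for number 3, so the numbers were not taken to pair the mice.

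Groups held 2 or 3 mice, and SEs of the members' log2 fold changes were 0.16 to 1.85. The share of those errors due to read depth was not measured. An adjusted p over the threshold does not show that groups were alike.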
